A study of Mus musculus with 12 samples.

Results

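The Hox genes were examined as a family: the 39 protein-coding genes of the mouse whose symbols begin with Hoxa, Hoxb, Hoxc or Hoxd and a digit, out of 21887 protein-coding genes on chromosomes 1 to 19, X and Y in the RefSeq annotation of GRCm38. They lie in 4 clusters, with 11 genes in Hoxa on chromosome 6, 10 in Hoxb on chromosome 11, 9 in Hoxc on chromosome 15 and 9 in Hoxd on chromosome 2. The series mapped R-loops with S9.6, an antibody against RNA-DNA hybrids, in a study of how R-loops bear on genome editing by adeno-associated virus vectors. It holds 12 libraries in 6 groups of 2: immunoprecipitate, immunoprecipitate treated with RNase H1 (an enzyme that removes the RNA of a hybrid) and input DNA, each from HEPA1-6, a mouse hepatoma cell line kept in culture, and from the liver of C57/Bl6 mice. All groups are labelled wild type and untreated, and the age of the mice is not given in the labels. The data used were 1 list of peaks (intervals enriched in the immunoprecipitate) for each source. The peak names describe a merged immunoprecipitate set against an input. A single list for each source has no replicate error, so no difference between the sources or between genes carries a test, and signal after RNase H1 treatment was not analysed here.

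An R-loop forms when an RNA pairs with the DNA strand it was copied from and leaves the other strand single. It usually arises during transcription, and is favoured where the new RNA is rich in G. Hox genes encode homeodomain transcription factors that give cells their position along the body axis. Within a cluster they stand in a row, numbered from paralogue group 1 at the anterior end to group 13 at the posterior end, and each is switched on in the embryo in a sequence that follows this order. Where a Hox gene is silent, Polycomb complexes usually hold it so, and trithorax complexes act in the other direction.

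Hox genes held few peaks in either source. A gene was counted as holding a peak when a listed interval overlapped its body or the 1 kb on either side. In HEPA1-6, 2 of the 39 members held a peak (5.13%), where 42.0% of all protein-coding genes did. These were Hoxa10 and Hoxb13. In the liver list 1 of 39 held a peak (2.56%), against 29.7% of all protein-coding genes, and this was again Hoxa10. Hoxa10 was therefore the single member with a peak in both lists, whereas 27.8% of protein-coding genes had one in both. In the higher-scoring 50% of each list its liver peak was lost, which left 0 members with a liver peak or with a peak in both lists. Under that cut 20.7% of all protein-coding genes held a liver peak. Hoxb13 held a peak in HEPA1-6 alone, as did 14.2% of protein-coding genes. The other 37 members had no peak in either list.

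Both members with a peak belong to the posterior groups (9 to 13), which make up 16 of the 39 members. Of these 16, 2 held a HEPA1-6 peak (12.5%) and 1 a liver peak (6.25%). Over all protein-coding genes the shares were 42.0% and 29.7%. None of the 8 anterior members (groups 1 to 3) and none of the 15 central members (groups 4 to 8) held a peak in either list. With 2 genes behind it, this split between the groups was not tested.

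Hox genes are short. The members ranged from 1784 bp (Hoxc12) to 44009 bp (Hoxa3), with a median of 3737 bp, against a median of 17169 bp over all protein-coding genes. Among the 14013 protein-coding genes between the shortest and the longest member in length, a range that reaches far above the Hox median, the share with a peak was 45.3% in HEPA1-6 and 31.4% in the liver list. In bases, the member genes with 1 kb on both sides came to 339.4 kb, of which 1.51% lay under HEPA1-6 peaks and 0.283% under liver peaks. For the windows of all protein-coding genes, where long genes weigh most, these percentages were 4.77% and 1.62%. Over the whole clusters, intergenic bases included, they were 1.36% and 0.192% of 500.1 kb. The member windows held 1.77 HEPA1-6 peaks per 100 kb and 0.295 liver peaks, and the windows of all protein-coding genes 2.44 and 1.08. The part of gene length in these differences was not tested.

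**Figure D1:**
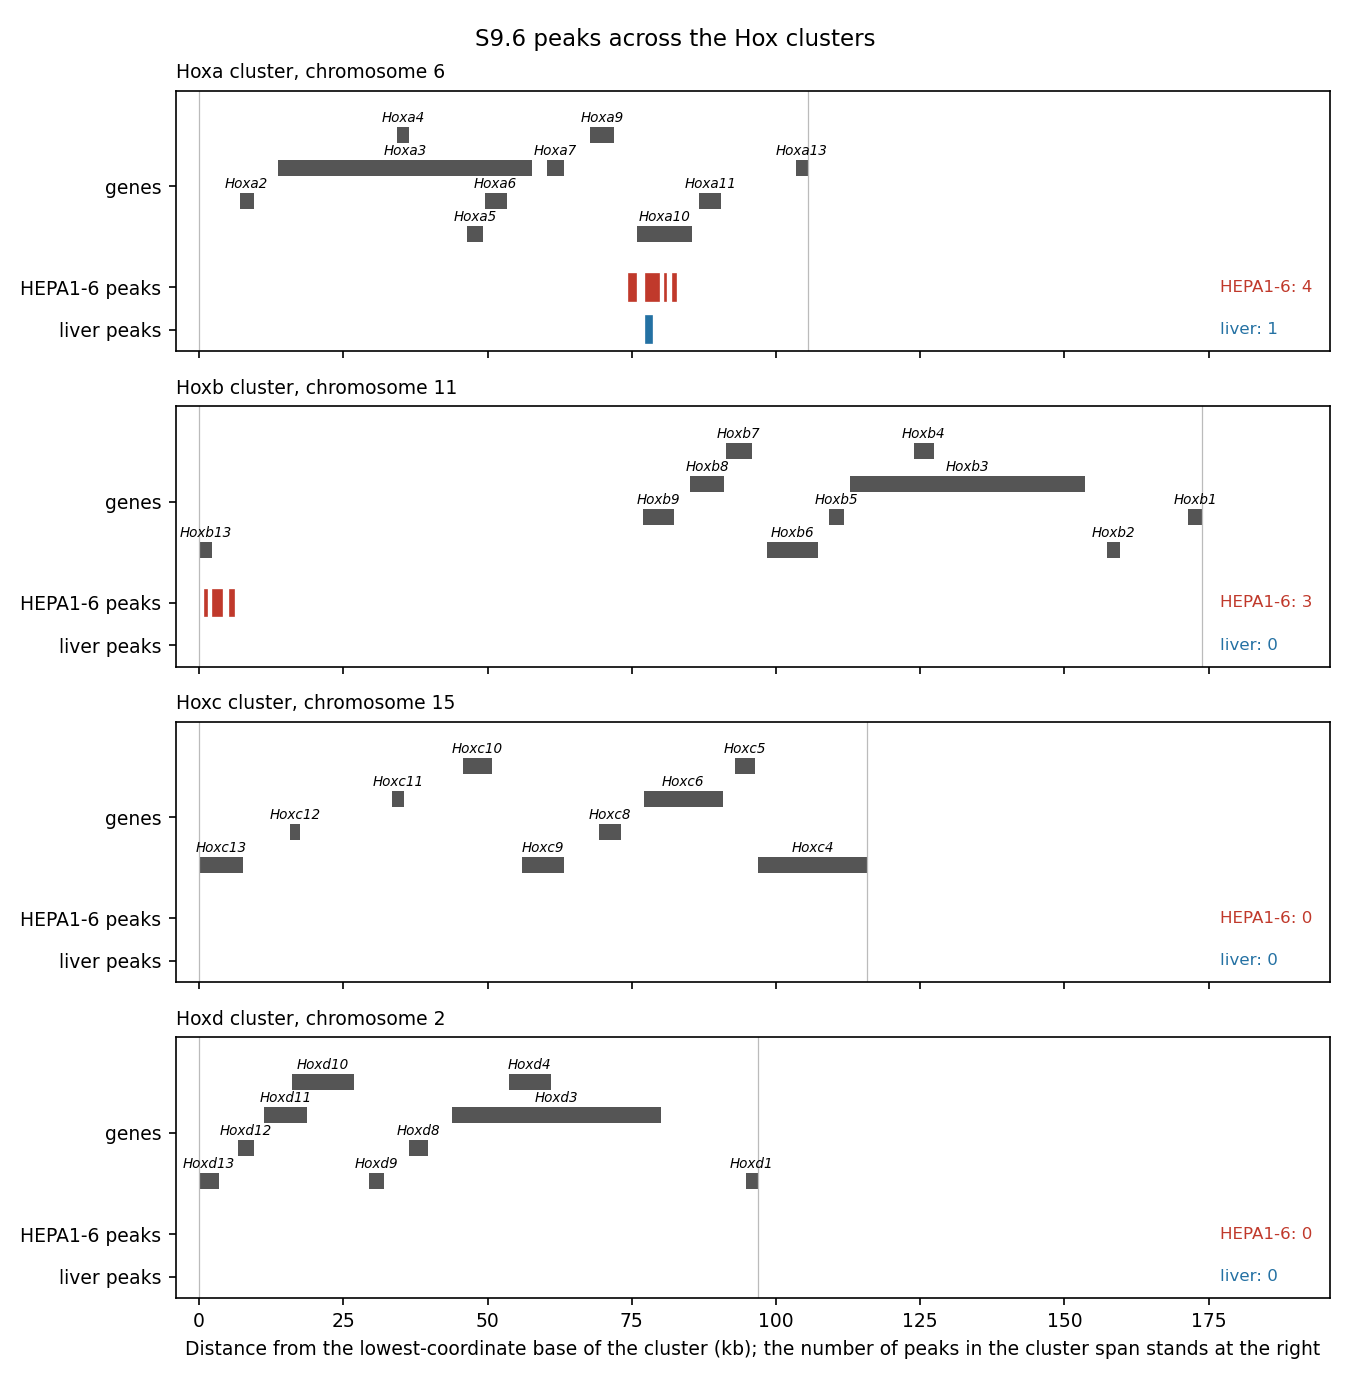
Map of the 4 Hox clusters, drawn to scale in kb from the lowest-coordinate base of each. Grey bars are named genes, red bars HEPA1-6 peaks and blue bars liver peaks. Peaks lie at Hoxa10 in both lists and around Hoxb13 in HEPA1-6, and the Hoxc and Hoxd panels hold none.

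By cluster, the members held 4 HEPA1-6 peaks in Hoxa and 2 in Hoxb, and 0 in Hoxc and Hoxd. The liver list had 1 peak in Hoxa and 0 in the other clusters. All 4 HEPA1-6 peaks of the Hoxa cluster were at Hoxa10, and both of the Hoxb cluster were at Hoxb13. A peak that failed the authors' threshold would not be listed, and the sequencing depth is unknown, so the remaining members were without a called peak rather than shown to be without R-loops. A hybrid carried by fewer cells and a weaker hybrid in every cell also cannot be told apart in these lists.

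Hoxa10, which takes part in patterning the limb and the female reproductive tract, spans chr6:52231197-52240854 on the minus strand. RefSeq gives it a pair of start sites, at positions 52240854 and 52234939. The promoter windows of both starts (250 bases before to 50 after the start, from RefSeq, GRCm38.p6, minus strand, written 5′ to 3′) are shown because the HEPA1-6 list separates them. The first is chr6:52240805-52241104 and the second chr6:52234890-52235189. Capitals mark the bases that lay under a HEPA1-6 peak.
Hoxa10 upstream start: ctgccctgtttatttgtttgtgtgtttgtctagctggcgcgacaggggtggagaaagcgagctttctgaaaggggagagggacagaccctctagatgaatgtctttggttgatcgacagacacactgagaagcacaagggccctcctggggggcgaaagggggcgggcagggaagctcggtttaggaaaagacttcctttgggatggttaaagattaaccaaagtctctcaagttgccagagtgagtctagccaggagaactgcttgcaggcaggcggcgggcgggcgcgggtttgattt
Hoxa10 downstream start: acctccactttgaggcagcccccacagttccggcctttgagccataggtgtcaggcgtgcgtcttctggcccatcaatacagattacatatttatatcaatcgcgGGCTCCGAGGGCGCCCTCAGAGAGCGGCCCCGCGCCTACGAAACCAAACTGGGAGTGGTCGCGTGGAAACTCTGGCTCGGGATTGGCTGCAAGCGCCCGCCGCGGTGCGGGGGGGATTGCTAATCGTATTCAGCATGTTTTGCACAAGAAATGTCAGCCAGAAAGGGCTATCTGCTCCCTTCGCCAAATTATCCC

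The window of the downstream start had 195 of its 300 bases under a HEPA1-6 peak, and that of the upstream start had 0. The upstream window is the more G-rich on the strand that matches the RNA: its GC skew, the excess of G over C as a share of both, was 0.30, against -0.03 in the downstream window. G+C content was 54.3% and 57.3%. Runs of GGGG began at 7 positions of the upstream window and at 4 of the downstream one. The window with the peak was thus the one with less G skew. Most of each window lies before its own start, and the skew of the sequence transcribed from that start was not examined.

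The 4 HEPA1-6 peaks at Hoxa10 are described in the direction of transcription, with distances from the upstream start. The peak at chr6:52237478-52238103 lay 2751 to 3376 bp downstream and scored 14. The score is the authors' whole number per peak, of 10 or more, on a scale not stated in the sources used here, so that it can rank peaks only within a list. The next peak, chr6:52236136-52236389, was 254 bp wide and had the highest score at the gene, 25. It lay 4465 to 4718 bp downstream, between the start sites. The widest peak, chr6:52232847-52235084 (2238 bp, score 14), covered the downstream start and the sequence after it. Together the peaks covered 32.3% of the gene body. The last, chr6:52229845-52231073 (1229 bp, score 17), began 124 bp beyond the 3′ end of the gene and covered Mir196b.

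In the liver list Hoxa10 held 1 peak, chr6:52232847-52233805, 959 bp wide with a score of 14. It lay wholly inside the widest HEPA1-6 peak, of which it made up 42.9%, and ended at the same base on the side away from the start sites. A shared edge of this kind was common: of 11455 overlapping pairs of peaks in the whole lists, 5281 (46.1%) had an identical start or end. The liver peak stopped short of the downstream start of Hoxa10. The other 3 HEPA1-6 peaks at the gene had no liver counterpart. All 5 peaks carry a minus strand in the lists, which is the strand of Hoxa10 and of Mir196b. A noncoding gene of the plus strand, Gm52902, overlaps the 3′ part of Hoxa10 and Mir196b. How the authors gave a strand to a peak is not stated in the sources used here.

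**Figure D2:**
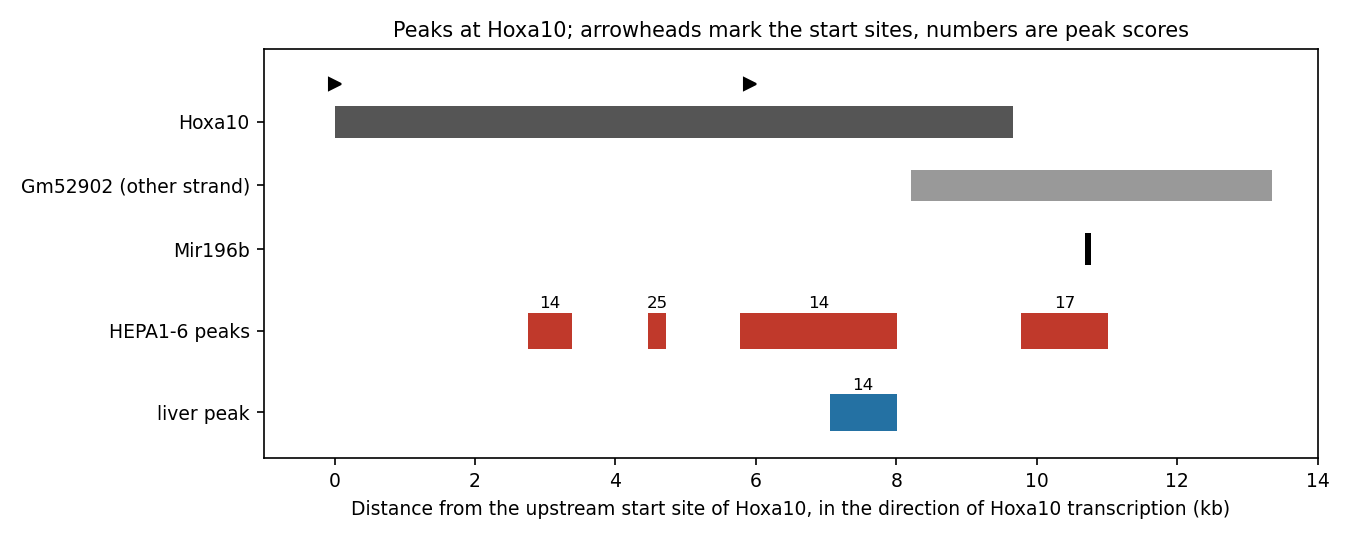
Peaks at Hoxa10, in kb from its upstream start site in the direction of transcription; bars are genes and peaks to scale, arrowheads start sites, and numbers the peak scores. The HEPA1-6 peaks lie between the start sites, over the downstream start and past the 3′ end, and the liver peak lies within the widest of them.

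The peak past the 3′ end of Hoxa10 covered the whole hairpin of Mir196b (chr6:52230081-52230165). MicroRNAs of the miR-196 and miR-10 families are encoded within the Hox clusters, and miR-196 is known to act on Hoxb8 mRNA. Of the 6 microRNA genes of the clusters, Mir196b was the one with a HEPA1-6 peak over its hairpin or within 1 kb. The background over all microRNA genes was 25.5% in HEPA1-6 and 13.9% in the liver list, where none of the 6 held a peak. The 5′ arms are printed to show that the microRNA with the peak shares its seed (bases 2 to 8, in capitals) with copies in the Hoxb and Hoxc clusters that had no peak.
mmu-miR-196b-5p: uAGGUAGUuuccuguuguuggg
mmu-miR-196a-5p: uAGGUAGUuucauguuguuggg
mmu-miR-10a-5p: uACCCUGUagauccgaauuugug
mmu-miR-10b-5p: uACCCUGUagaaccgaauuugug

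Counted from the 5′ end, miR-196b-5p differs from miR-196a-5p by A12C, outside the seed, and miR-10b-5p from miR-10a-5p by U12A. Both genes for miR-196a lay far from any peak. The nearest HEPA1-6 peak was 64.8 kb from Mir196a-1 in the Hoxb cluster and 216 kb from Mir196a-2 in the Hoxc cluster. For Mir10a the distance was 117 kb, for Mir10b 99.5 kb and for Mir615 174 kb. In the liver list the nearest peak to Mir196b was 2.68 kb away, the one inside Hoxa10.

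Hoxb13, a posterior gene known for its role in the prostate and the end of the body axis, stands apart from the rest of its cluster at chr11:96194316-96196610. Its first HEPA1-6 peak, chr11:96195363-96195623, was 261 bp wide, lay inside the gene, carried a plus strand and scored 13. The second, chr11:96196736-96198328, was 1593 bp wide, lay 126 bp outside the gene body on the higher-coordinate side, carried a minus strand and had the highest score at any member, 32. This second peak ended 535 bp before Gm30134, a noncoding gene of the minus strand. Another HEPA1-6 peak, chr11:96199708-96200327 (score 17, plus strand), lay over Gm30134 and outside the window of Hoxb13. Signal at Hoxb13 thus rested on 1 small peak within the gene and 1 wider peak beside it on the other strand. The nearest liver peak to Hoxb13 was 118 kb away.

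Scores at members were mostly low for their lists. The median score was 21 in HEPA1-6, where the 6 peaks at members scored 13, 14, 14, 17, 25 and 32. The peak scoring 13 stood above 7.36% of the list, and the peak scoring 32 above 76.3%. The liver peak at Hoxa10, with 14, stood above 6.27% of the liver list, whose median was 22. Among genes with a peak, the median of each gene's highest score was 34.0 in HEPA1-6 and 28.0 in the liver list over all protein-coding genes, so that the best peaks of Hoxa10 (25 and 14) and Hoxb13 (32) all lay below these medians.

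**Figure D3:**
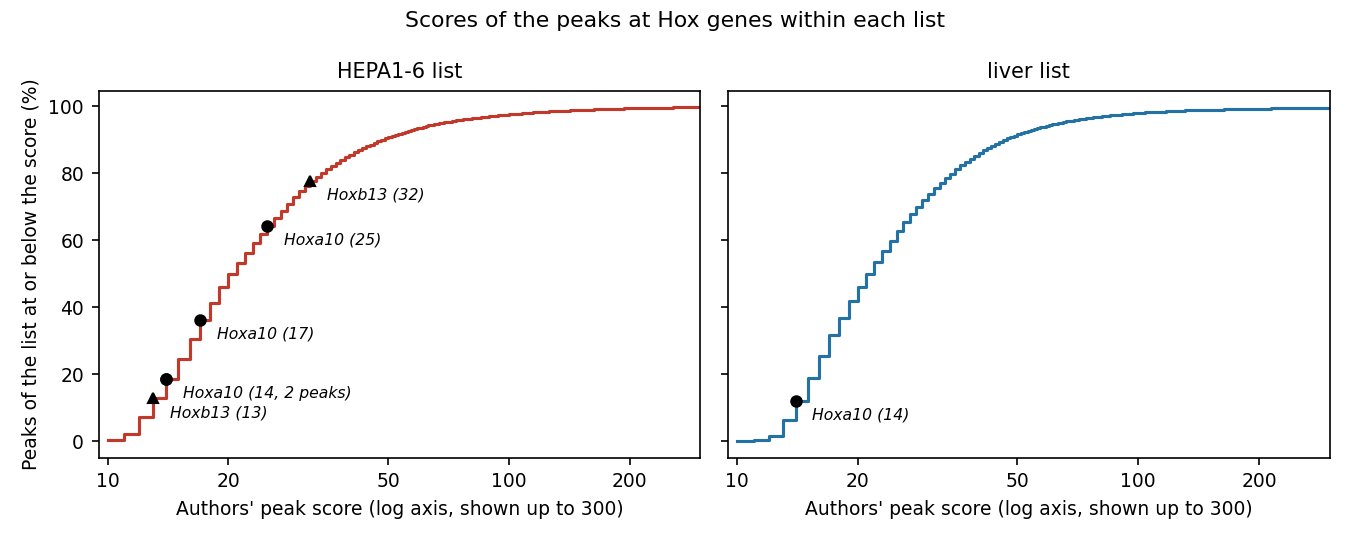
Cumulative share of peaks (%) by the authors' score (log axis) in each list, with the peaks at Hoxa10 (circles) and Hoxb13 (triangles). In HEPA1-6, 4 of the 6 peaks lie below the list median of 21, and the liver peak at Hoxa10 lies near the bottom of its list.

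Within the Hoxa cluster, peaks were confined to the stretch at Hoxa10. Its neighbours had none: Hoxa9 lay 2.48 kb and Hoxa11 4.00 kb from the nearest HEPA1-6 peak, and 5.48 kb and 8.30 kb from the liver peak. These were the members closest to a peak without being counted, and with 5 kb on both sides both would count in HEPA1-6. Hoxa13, at the posterior end, lay 20.8 kb from a HEPA1-6 peak. In the central groups the distance was 11.3 kb at Hoxa7, 21.2 kb at Hoxa6, 25.3 kb at Hoxa5 and 38.1 kb at Hoxa4. At the anterior end it was 16.8 kb for Hoxa3, which has the longest annotated body of the family, and 65.0 kb for Hoxa2. The HEPA1-6 list had no peak over the 219 kb before the peak at Mir196b, a stretch that holds 8 members, nor over the 308 kb on the other side, from the Hoxa10 peak nearest its upstream start, a stretch that holds Hoxa11 and Hoxa13.

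The rest of the Hoxb cluster, from Hoxb9 to Hoxb1, was free of peaks in both lists. These 9 members lay in a gap of 563 kb between neighbouring HEPA1-6 peaks. Hoxb9 was 71.0 kb from the nearest HEPA1-6 peak, Hoxb8 79.1 kb, Hoxb7 85.3 kb and Hoxb6 92.5 kb. Hoxb5 (103 kb), Hoxb3 (107 kb), Hoxb4 (118 kb), Hoxb2 (151 kb) and Hoxb1 (165 kb) followed. In the liver list the whole cluster, Hoxb13 included, fell in 1 gap of 689 kb.

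The Hoxc cluster was the one whose closest member lay farthest from a HEPA1-6 peak. Its 9 members, Hoxc4, Hoxc5, Hoxc6, Hoxc8, Hoxc9, Hoxc10, Hoxc11, Hoxc12 and Hoxc13, lay in a gap of 481 kb in HEPA1-6 and of 614 kb in the liver list. The distance to the nearest HEPA1-6 peak ran from 153 kb (Hoxc4) to 233 kb (Hoxc11), and to the nearest liver peak from 202 kb (Hoxc4) to 301 kb (Hoxc12). Chromosome 15 as a whole held 2072 peaks in HEPA1-6 and 2234 in the liver list, and 56.3% and 54.4% of its 776 protein-coding genes held one. For the chromosomes of the other clusters these shares were 44.7% and 36.1% (chromosome 6, Hoxa), 55.9% and 41.4% (chromosome 11, Hoxb) and 42.3% and 27.9% (chromosome 2, Hoxd). Chromosomes 6, 11 and 2 held 2012, 2818 and 2374 HEPA1-6 peaks, but 1065, 1245 and 1055 liver peaks. Chromosome 15 was thus unlike them in holding more liver than HEPA1-6 peaks, and the reason was not tested.

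The Hoxd cluster lay in a gap of 262 kb in HEPA1-6 and of 915 kb in the liver list, with all 9 members inside. At its anterior end, both lists resumed at the same base, 74825617, beside Mtx2, which put Hoxd1 60.5 kb from a peak in either source. Distances to the nearest HEPA1-6 peak were 77.3 kb for Hoxd3, 96.5 kb for Hoxd4, 118 kb for Hoxd8 and 125 kb for Hoxd9. For Hoxd10 the distance was 121 kb, for Hoxd11 116 kb, for Hoxd12 112 kb and for Hoxd13 105 kb.

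Such gaps were long for these lists but not outside their range. The median gap between neighbouring peaks was 5.53 kb in HEPA1-6 and 16.3 kb in the liver list. Of 28661 HEPA1-6 gaps, 3.58% were at least as long as the one over Hoxb9 to Hoxb1, 4.08% as the one over Hoxc and 6.55% as the one over Hoxd. In the liver list 6.77% of 14827 gaps were at least as long as that over Hoxb, 7.57% as that over Hoxc and 4.75% as that over Hoxd. For the gaps on either side of the Hoxa10 peaks, 219 and 308 kb in HEPA1-6, the shares were 7.40% and 5.82%. In the liver list those gaps were 221 and 482 kb, with shares of 17.3% and 9.61%. A share of gaps counts each gap once, whatever its length.

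Most of the nearest other protein-coding genes on each side of the clusters held no peak, as was true of protein-coding genes in general. Over all of these, 42.0% held a HEPA1-6 peak and 29.7% a liver peak, and with so few flanking genes no difference from these shares was tested. Beside Hoxa, Skap2 (143 kb away) held 1 peak in each list, with scores of 14 and 20, and the homeobox gene Evx1 (52.6 kb) held none. Beside Hoxb, Ttll6 (28.1 kb) and Skap1 (96.3 kb), an adaptor protein gene of 295 kb, held none in either list. Beside Hoxc, Calcoco1 (199 kb) held 1 HEPA1-6 peak with a score of 16, and Smug1, a DNA repair glycosylase gene 116 kb away, none. Beside Hoxd, the homeobox gene Evx2 (6.71 kb) held none, and Mtx2 (60.7 kb), which encodes a protein of mitochondrial import, held 7 HEPA1-6 and 2 liver peaks with top scores of 30 and 19. Of these 8 flanking genes, Skap2 and Mtx2 were the ones with a peak in both lists.

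Noncoding RNA genes of the clusters were taken from a list of known names, which leaves out Gm52902 and Gm30134, each overlapped by a HEPA1-6 peak described above. Of 19 listed, 17 were found in the gene table, and 1 of these, Mir196b, held a HEPA1-6 peak and 0 a liver peak. Hotair in the Hoxc cluster, Hottip, Hotairm1, Hotairm2, Hoxaas2, Hoxaas3 and Hoxa11os in the Hoxa cluster, Hoxb3os and Hoxb5os in the Hoxb cluster and Haglr and Hoxd3os1 in the Hoxd cluster held none in either list. Hottip and Hotair are known as RNAs that bring histone-modifying complexes to Hox genes. The share over all lncRNA genes was 13.6% in HEPA1-6 and 8.97% in the liver list, a lower background than that of protein-coding genes.

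Promoter sequence was compared next, since R-loops are known to form at promoters rich in CpG. The RefSeq promoter table held 24 windows of 300 bases for 22 of the 39 members, with 3 windows in Hoxb and 1 in Hoxc. Hoxb13 was not among them, so its promoter was not examined. Their median G+C content was 57.7% (range 39.7 to 81.0%), against 56.3% over 21263 windows of protein-coding genes. Windows that overlapped a HEPA1-6 peak had a median of 63.2%. The ratio of observed to expected CpG had a median of 0.63 at Hox promoters, 0.57 over all promoters and 0.83 at promoters with a HEPA1-6 peak. Hox promoters were thus near the middle of all promoters in composition. The median GC skew was 0.038 at Hox promoters and 0.016 over all, with 15 of 24 Hox windows (62.5%) and 53.6% of all windows above 0.

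Of the 24 Hox windows, 1 overlapped a HEPA1-6 peak (4.17%), the downstream start of Hoxa10, and 0 overlapped a liver peak. Over all promoter windows of protein-coding genes, 20.1% overlapped a HEPA1-6 peak and 13.2% a liver peak. A window was called CpG-rich with a G+C content of 55% or more and a CpG ratio of 0.6 or more. This class held 9 Hox windows, at Hoxa3, Hoxa5, Hoxa6, Hoxa10, Hoxa13, Hoxd1, Hoxd10, Hoxd11 and Hoxd13, and 41.0% of all windows. Of these 9, 1 overlapped a HEPA1-6 peak and 0 a liver peak, where 35.2% and 24.0% of all CpG-rich windows did. The window richest in G+C was that of Hoxa13 (81.0%), and the strongest G skew was at Hoxa9 (0.48). Neither of these held a peak.

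Runs of G on the strand that matches the RNA were counted as GGGG, with overlapping matches allowed, and on the opposite strand as CCCC. A GGGG run was present in 21 of 24 Hox windows (87.5%) and in 72.5% of all windows, and a CCCC run in 19 of 24 (79.2%) and in 69.7%. Among windows with a HEPA1-6 peak these shares were 82.6% and 81.2%. A match describes the sequence alone.

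**Figure D4:**
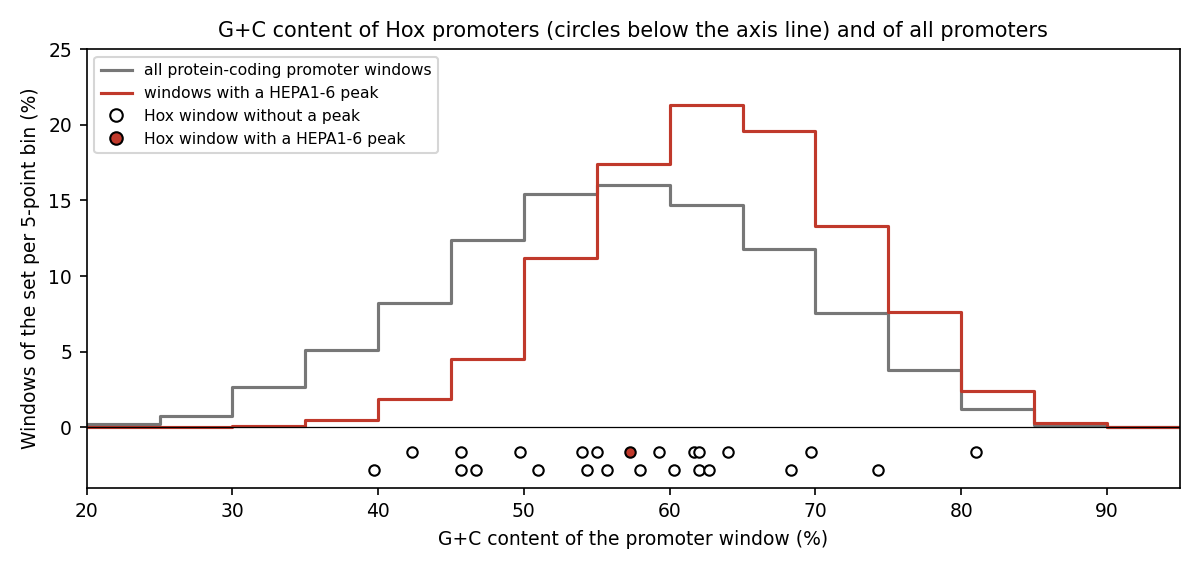
Distribution of G+C content (%, x axis) of all protein-coding promoter windows (grey) and of those with a HEPA1-6 peak (red), as % of each set per 5-point bin, with each of the 24 Hox windows as a circle. Hox windows spread from 39.7 to 81.0%, and 1 of them, at the downstream start of Hoxa10, holds a peak.

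A chosen list of other homeobox genes outside the clusters had a share close to that of the Hox genes. It leaves out the TALE homeobox genes, which are counted apart below and had a higher share in HEPA1-6. Of 36, among them the Cdx, Dlx, Msx and Otx genes, peaks were called at 2 in HEPA1-6 (5.56%) and at 1 in the liver list (2.78%). These were Dlx4, with scores of 32 and 22, and Dlx1, with a score of 14 in HEPA1-6. Genes that act with or upon Hox genes were counted in the same way, beside the 42.0% and 29.7% of all protein-coding genes. Of 9 genes for TALE homeodomain proteins, which bind DNA together with Hox proteins, 5 held a HEPA1-6 peak (55.6%) and 1 a liver peak (11.1%). Pknox1 was the one in both, with scores of 63 and 61, and Pbx2 scored 36 in HEPA1-6.

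Polycomb group genes, whose products keep Hox genes silent, held a HEPA1-6 peak in 15 of 15 cases and a liver peak in 12 of 15 (80.0%). High scores were found at Jarid2 (805 and 988), Ezh2 (238 and 96) and Ring1 (153 and 80). Of the 9 trithorax group genes, peaks were found at 8 in HEPA1-6 (88.9%) and at 6 in the liver list (66.7%), led by Ash1l (91) and Kmt2d (86) in HEPA1-6 and by Kmt2d (67) and Rbbp5 (61) in the liver list. No test compares these lists with the Hox genes, and several of these genes are longer than any Hox gene: the median length was 26323 bp for the Polycomb group and 139224 bp for the TALE genes.

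**Figure D5:**
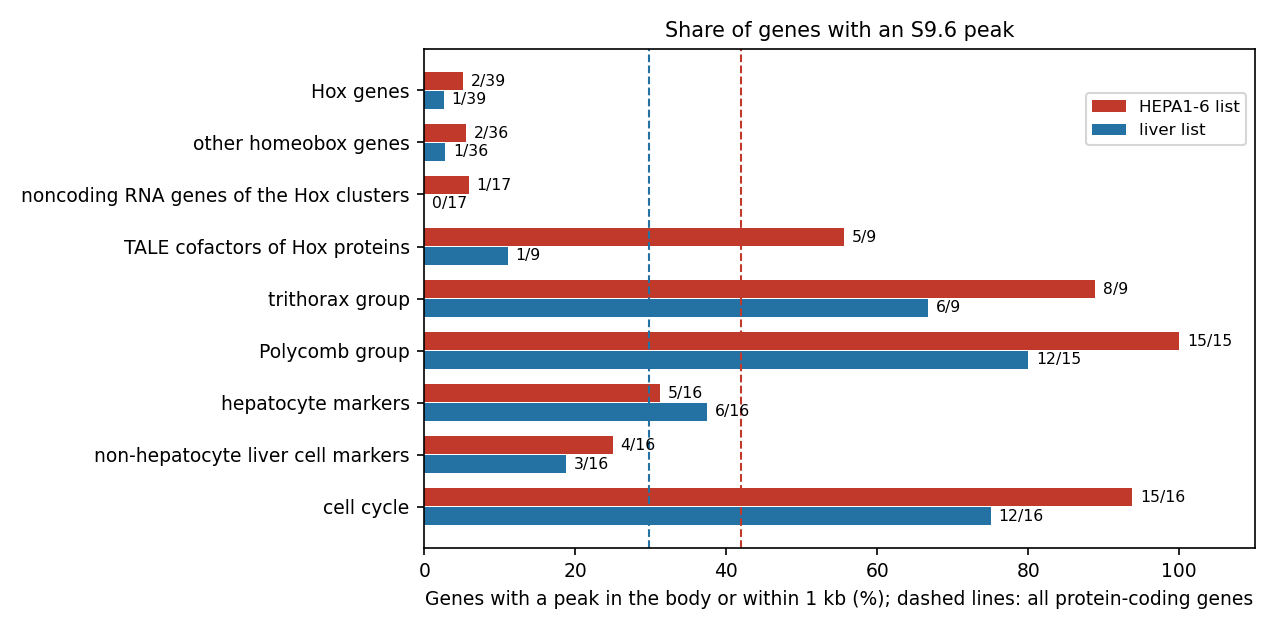
Share of genes (%) with a peak in the body or within 1 kb for each gene list, with the count at each bar; dashed lines mark all protein-coding genes (42.0% in HEPA1-6, 29.7% in the liver list). Hox genes and the listed other homeobox genes and noncoding RNA genes of the clusters lie below 6% in both lists. The noncoding list leaves out Gm52902 and Gm30134, and the dashed lines are not its background. Over all lncRNA genes the shares were 13.6% in HEPA1-6 and 8.97% in the liver list, and over all microRNA genes 25.5% and 13.9%.

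Facts of the lists as a whole bear on these counts. The HEPA1-6 list held 28717 peaks and the liver list 14908, so that HEPA1-6 had 1.93 times as many in all. Against the same 42.0% and 29.7%, 5 of 16 hepatocyte markers held a HEPA1-6 peak (31.2%) and 6 a liver peak (37.5%), and Alb, Apoa2, Apoe, Hnf4a and Trf held one in both, while Ttr, Apoa1, Cps1 and Fgb held none. Of 16 markers of other liver cells, 4 and 3 held a peak, shares below the background, and 15 and 12 of 16 cell cycle genes did, shares above it. A peak is not a measure of expression, and the part of cell type in the counts at Hox genes was not tested.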

How the data were processed

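Libraries were made by S9.6 immunoprecipitation of genomic DNA, sonication and paired-end sequencing, per the labels' protocols. The submitters' processing notes name CASAVA 1.8.2, cutadapt, Bowtie2, bedtools, SAMtools and MACS2 and the build mm10, without parameters. The score of a peak was deposited by the authors as a whole number with its scale not stated, and no depth per library was used, so no interval for depth can be given. Both lists are pooled, so each source counts as 1 list, whatever the number of its libraries.

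From these lists, intervals were laid over RefSeq genes and promoter windows of GRCm38.p6 with numpy 2.4.6 and pandas 2.3.3. Genes were extended by 1 kb at each end, and an overlap of at least 1 bp counted. The overlap code was checked on simulated peaks. The rule named the Hox members, the nearest protein-coding gene on each side of a cluster and up to 4 top-scoring genes of each other list; some genes it covers are counted but not reported here by name. The members and lists were chosen with earlier results of these data known. Alternatives changed the flank, the overlap rule, the score threshold, the list length and the strand.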

Additional observations from a re-analysis of the deposited data

How the results depend on the processing

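Of 33 values recomputed for 7 results under 6 alternatives, 24 stayed within 1.5 times the reported count, or within the counting interval of the reported percentage of bases, and 9 moved. That interval treats each base as independent, though the bases lie in few peaks, so it does not measure a spread. The results share the same peaks. Keeping only peaks with a strand could change none of them, since every peak in the clusters carries a strand. With no flank, HEPA1-6 peaks fell from 6 to 4, just at the limit. A window of 5 kb on both sides, wider by construction, gave 4 Hox genes with a HEPA1-6 peak, adding Hoxa9 and Hoxa11, while the share of all protein-coding genes was 46.3%. The higher-scoring 50% of each list kept Hoxa10 and Hoxb13 in HEPA1-6 with 2 peaks and 0.369% of cluster bases. At Hoxb13 the peak kept lay 126 bp outside the gene body, and the peak inside the gene was lost. That cut left 0 Hox genes with a liver peak, 0 with a peak in both lists, 0 liver peaks and 0.00% of bases. The reason is that the score of the Hoxa10 liver peak is below the median of its list. A HEPA1-6 list shortened to the length of the liver list likewise held 2 peaks at Hox genes and 0.369% of cluster bases. In that shortened list 34.0% of all protein-coding genes held a peak. No paired analysis was possible because each source has 1 pooled list, in which the replicate numbers of the labels no longer appear. Leaving out a replicate could not be done for the same reason. The unknown depth limits every count of genes without a peak.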
